A study of Homo sapiens with 18 samples.

Results

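Indisulam is a sulfonamide compound, and the comparison described here set MM1S cells treated with it against MM1S cells given DMSO, its solvent control. MM1S is an established human multiple myeloma line, a tumor line of plasma cells. By their labels, 3 libraries belong to the DMSO group and 3 to the indisulam group, 6 of the 18 samples in the series, and no gene or value was used to choose them. The label of the treated group is an abbreviation, taken to mean indisulam because the study's design text names that compound, and no dose, time or passage is given for either group. The other samples are RBM39 knockdown and scramble libraries from H929 and MM1S cells and a pair of RNA immunoprecipitations from MM1S; of these, only the 4 MM1S knockdown libraries and the immunoprecipitation pair are set beside the indisulam values below. RNA was taken up in TRIzol and sequenced after preparation with a SMARTER mRNA kit, and all 6 libraries hold values in TPM, a transcript level scaled to gene length and to the same total in every library. Whether the replicates came from separate cultures is not stated, so each p-value below is measured against the spread of these libraries alone, part of which may be technical.

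RBM39 is an RNA-binding protein with SR-like sequence that works with the U2AF and SF3B splicing factors at the 3′ splice site. Indisulam acts as a molecular glue: it fills a groove on DCAF15, the substrate receptor of a cullin-RING ubiquitin ligase built on DDB1, DDA1, CUL4 and RBX1, and the altered surface takes hold of RBM39, which is then ubiquitinated and broken down by the proteasome. The loss falls on the protein, so the transcript of RBM39 need not fall, and plasma cell tumors, which make and fold large amounts of antibody, are also widely treated with proteasome inhibitors such as bortezomib.

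The 3 DMSO libraries resembled each other closely, and indisulam replicate 3 stood apart from replicates 1 and 2. Across the 13445 genes tested, log2(TPM + 1) levels correlated at 0.988 to 0.989 among the DMSO libraries and at 0.987 between indisulam replicates 1 and 2. Indisulam replicate 3 correlated with these at 0.958 and 0.964, and with the DMSO libraries at 0.949 to 0.95, above the 0.91 to 0.927 of replicates 1 and 2. It also had fewer genes at 1 TPM or more, 12550, against 13751 and 13748 in replicates 1 and 2 and 13129 to 13225 with DMSO, and the median level of tested genes was 7.35 TPM, against 11.3 and 11.1 TPM and 9.54 to 10.1 TPM. These are correlations across genes, which are not independent replicates. Mitochondrially encoded transcripts made up 10.2% to 12.9% of TPM with DMSO and 10.9% to 12.4% with indisulam, and immunoglobulin transcripts 11.8% to 11.9% and 14.9% to 16.6%. Cytosolic ribosomal protein genes summed to 274100 TPM in indisulam replicate 3, against 197900 to 217100 TPM in the other libraries. Each count of called list members below is therefore also given without indisulam replicate 3, beside which stand 37.9% of all genes higher and 27.8% lower. Counts without replicate 3 are on the deposited scale unless a scaling is named. In 32.3% of all 13445 genes every treated library was below every control, and in 14.9% every one was above. These shares stand beside each statement below that groups did not overlap. Called list members were named by adjusted p, which favors such genes. After scaling to equal medians of tested genes (median scaling), the fit without replicate 3 called 4224 of 14238 genes higher and 5115 lower. The balance of a list without replicate 3 can therefore depend on scaling. The depth of the libraries is unknown, since TPM keeps no counts. In bulk RNA, fewer cells of a kind and less of a transcript per cell cannot be told apart.

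The RBM39 transcript overlapped between the groups. It stood at 189, 178 and 196 TPM in the 3 DMSO libraries and at 226, 217 and 149 TPM in indisulam replicates 1, 2 and 3. Replicates 1 and 2 lay above every DMSO library and replicate 3 below every one. The log2 change, taken here and throughout as the difference of mean log2(TPM + 1), was 0.05 (SE 0.16, limma adjusted p = 0.828), and 0.24 without replicate 3 (adjusted p = 0.00899). That call depended on scaling, since after median scaling the change without replicate 3 was 0.055 (adjusted p = 0.366). MAP2K5, which encodes the kinase MEK5, was at 10.3, 11.6 and 10.9 TPM with DMSO and 9.23, 7.91 and 10.1 TPM with indisulam. All 3 treated values lay below all 3 controls, by a small margin in replicate 3, and the log2 change of -0.25 did not pass the test (SE 0.158, adjusted p = 0.266), while the -0.32 without replicate 3 did (adjusted p = 0.026). An exact permutation test of each gene, two-sided, gave p = 0.9 for RBM39 and 0.1 for MAP2K5, where 0.1 is the lowest value that groups of 3 can reach.

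Among RBM39 and its splicing partners, 7 of 17 genes fell and 0 rose, where limma called 21.5% of all 13445 genes lower and 8.47% higher at an adjusted p below 0.05. U2AF1, the subunit of U2AF that reads the AG at the 3′ splice site, fell from 127, 138 and 142 TPM to 54.1, 47.2 and 53.8 TPM (log2 change -1.38, SE 0.0976, adjusted p = 0.000182). SF3B3, a scaffold of the SF3B complex, fell from 95.4, 109.6 and 95 to 30.4, 39 and 56.4 TPM. In both genes every treated library was below every control, and for SF3B3 replicate 3 was the nearest to the controls. PUF60, a poly-U binding relative of U2AF2, fell by 0.60 on the log2 scale, SF3B4 by 0.63, PHF5A by 0.65, RBM17 by 0.51 and SF3B2 by 0.25, the last turning to a difference of 0.06 with no call after quantile normalization. U2AF2, the large U2AF subunit, did not pass, at 134, 125 and 141 against 139, 142 and 109 TPM, nor did SF3B1, the SF3B subunit that contacts the branch point, at 129, 125 and 125 against 139.5, 140.1 and 134 TPM. SF3A1, SF3A2 and SF3A3 had log2 changes of 0.01, -0.06 and -0.21, RBM23, the closest relative of RBM39, -0.17, and SRPK1, a kinase of SR proteins, -0.39, none of which passed. U2SURP, a component of the U2 particle, was at 26.1, 22.6 and 26.1 TPM with DMSO and 57.8, 47.2 and 26.1 TPM with indisulam, so that replicate 3 fell among the controls (log2 change 0.72, adjusted p = 0.09). The branch point protein gene SF1 was at 108, 105 and 107 against 162, 152 and 99.9 TPM, with replicates 1 and 2 above every control and replicate 3 below every one. Without replicate 3, 7 partners fell and 4 rose, against 27.8% lower, 37.9% higher and 65.7% in either direction of all 14238 genes then tested.

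Among the genes of the ligase that indisulam acts through and its regulators, 4 of 18 fell and 0 rose, and the 22.2% lower is close to the 21.5% of all genes. DCAF15 itself fell, from 30.8, 31.5 and 30.5 TPM to 20.2, 18.5 and 15.8 TPM (log2 change -0.74, SE 0.131, adjusted p = 0.00583), with no overlap. RBX1, its RING subunit, fell from 119.5, 121 and 128 to 69.2, 63.6 and 75.8 TPM, and NEDD8, the ubiquitin-like modifier that activates cullins, from 217, 223 and 221 to 110.4, 114 and 144 TPM. UBE2M, which passes NEDD8 to cullins, fell by 0.36 on the log2 scale, a call lost under median scaling and quantile normalization. After quantile normalization 3 members were lower and 4 higher. DDB1 and DDA1 had log2 changes of -0.24 (adjusted p = 0.0817) and -0.15 (adjusted p = 0.31). Without indisulam replicate 3, 9 members rose and 5 fell, where 37.9% and 27.8% of all genes did. After median scaling as well, the balance turned, with 5 higher and 8 lower beside 4224 and 5115 of all 14238 genes. CRBN, the substrate receptor of the lenalidomide class of drugs, was at 16.9, 17 and 15.2 TPM with DMSO and 46, 33.2 and 11.5 TPM with indisulam. CUL4B, a cullin scaffold, was at 14.9, 12.9 and 13.3 and 27.1, 26.4 and 14.1 TPM, and DCAF16, another receptor, at 13.7, 13.3 and 13.9 and 29.4, 27.9 and 11.9 TPM. On the deposited scale, replicates 1 and 2 of all 3 genes were far above the controls and replicate 3 was within or below their range. After median scaling with all 6 libraries, CUL4B and DCAF16 were called higher (limma adjusted p = 0.00654 and 0.0307). CRBN was not (adjusted p = 0.132).

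Over all genes 2885 fell and 1139 rose with indisulam out of 13445 tested, 29.9% in either direction, and the median log2 change of all genes was -0.05. The split between directions depended on scaling: 28.3% of calls were higher with the values as deposited, 46.2% after median scaling (2514 higher and 2929 lower) and 52.1% after quantile normalization (3026 and 2785). Every count also moved with the number of libraries: 352 to 378 genes rose and 1497 to 1677 fell without any 1 of the DMSO libraries, 537 and 2269 without indisulam replicate 1, 494 and 2354 without replicate 2, and 5391 and 3959 without replicate 3. The largest decrease outside the ribosomal 5S copies described at the end was in MIR210HG, the host gene of the hypoxia-induced miR-210, from 136, 138 and 120.1 TPM to 1.53, 3.05 and 3.42 TPM (log2 change -5.21, SE 0.223, adjusted p = 4.58e-05). Next came the nucleotide enzymes RRM2, from 156, 151 and 169 to 12.5, 15.3 and 11.9 TPM, and TYMS, from 216, 203 and 224 to 16.8, 22.9 and 17 TPM. CDC6, which loads the replicative helicase, fell by 3.34 on the log2 scale, the cytidine deaminase APOBEC3B by 3.33, the mitotic checkpoint ATPase TRIP13 by 3.21 and the transcription factor HES6 by 3.21. TCF19, the inositol phosphatase IMPA2, the histone chaperone ASF1B and the cell cycle transcription factor MYBL2 fell by 3.08, 3.07, 3.05 and 3.05. Only genes whose groups did not overlap could be ranked here. In each, the highest treated library was well below the lowest control, and replicate 3 was like replicates 1 and 2. APOBEC3B, for example, was at 92.9, 102 and 106 TPM with DMSO and 9.29, 8.73 and 9.13 TPM with indisulam.

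Several of the largest increases were in genes near 0 TPM with DMSO. ALDH8A1, an aldehyde dehydrogenase of tryptophan breakdown, rose from 0.02, 0.38 and 0.59 TPM to 18, 15.9 and 16.9 TPM (log2 change 3.78, SE 0.208, adjusted p = 9.2e-05), and ERMN, which encodes an actin-binding protein of oligodendrocytes, from 1.6, 1.76 and 2.14 to 17.1, 21.2 and 11.1 TPM. ERV3-1, an endogenous retroviral envelope gene, rose from 8.03, 9.13 and 5.99 to 56.8, 40.8 and 48.3 TPM. ALDH8A1 and ERV3-1 rose alike in all 3 treated libraries, while in ERMN replicate 3 was lower than the other two. ERN1, which encodes IRE1, the ER stress sensor that splices XBP1, rose from 33.3, 36.7 and 38.8 TPM to 292, 197 and 93.7 TPM (log2 change 2.25, SE 0.369, adjusted p = 0.00458). The peptide transporter SLC15A2 was at 3.99, 3.1 and 2.45 against 30.2, 27.9 and 11.6 TPM and the claudin CLDN12 at 1.27, 1.4 and 1.85 against 21.5, 14.8 and 3.34 TPM. In ERN1, SLC15A2 and CLDN12 replicate 3 was the lowest treated library, though above all controls, as the ranking required. IGHA1, LINC00222 and the pseudogenes PPIAP22 and USP32P3 rose by 3.18, 2.29, 2.36 and 2.12 on the log2 scale. A pseudogene can take reads of its parent gene, so the last pair is uncertain. Loci with clone names only, such as AC139887.2 and AC015849.1, with log2 changes of 3.25 and 3.21, also ranked among the 12 largest increases, and standard symbols were added below them after the values had been seen.

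**Figure D1:**
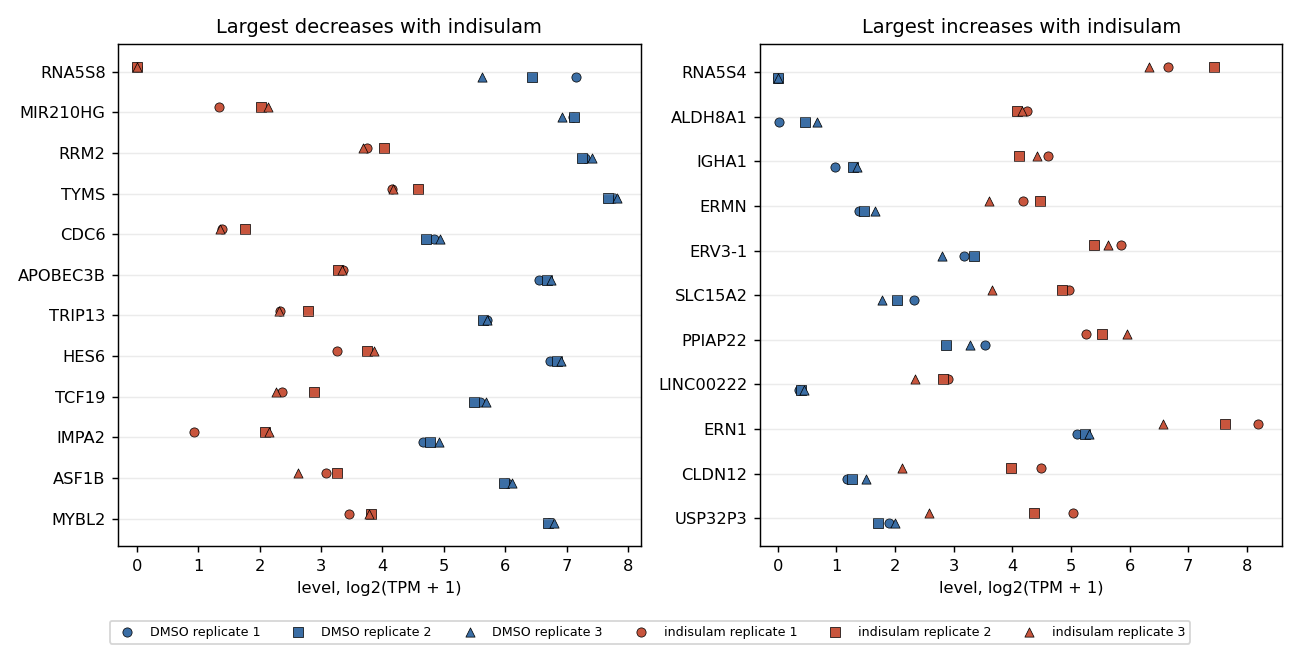
Level of the genes with the largest decreases (left) and increases (right) among genes with standard symbols, as log2(TPM + 1), with 1 point per library (blue DMSO, red indisulam, the marker shape giving the replicate). Only genes whose red and blue points do not overlap could be chosen. The red triangles of replicate 3 sit with the other red points on the left. On the right they sit nearer to DMSO for ERN1, SLC15A2, CLDN12 and USP32P3.

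How far indisulam replicate 3 shared the changes of replicates 1 and 2 depended on scaling. On the deposited scale it lay below all 3 DMSO libraries in 67.1% of all 13445 genes tested and above all of them in 18.1%, with a median log2 change of -0.33. Of the 3959 genes called lower without indisulam replicate 3, that library was below all 3 DMSO libraries in 3745, or 94.6%, and its median log2 change was -0.78, beside -0.67 in replicates 1 and 2. Of the 5391 called higher, it was above all DMSO libraries in 2082 (38.6%), within their range in 1158 and below all of them in 2151 (39.9%), and its median log2 change was -0.01, beside 0.72. After median scaling it lay below all DMSO libraries in 39.6% and above them in 43.4% of all genes. Of the 5115 genes then called lower without it, it was below all DMSO libraries in 69.5%, and of the 4224 called higher it was above all of them in 77.8% and below in 8.66%. These positions after scaling were added after the data were seen. With all 6 libraries 1139 genes were called higher and 2885 lower on the deposited scale. Of these, 1135 and 2881 were also called that way without replicate 3. The fits share their remaining libraries, and far more genes were called without replicate 3, so this overlap is no independent check. Some large changes of replicates 1 and 2 were far smaller in replicate 3. ZBED6, a zinc finger gene, was at 0.4, 0.28 and 0.38 TPM with DMSO and 12.5, 12.1 and 0.46 TPM with indisulam. The locus AC068446.1 was at 1.03, 0.87 and 1.03 and 22.5, 19.1 and 1.51 TPM. In both, replicate 3 lay slightly above every DMSO library. With all 6 libraries AC068446.1 was not called on the deposited scale (limma adjusted p = 0.0567) but was after median scaling (adjusted p = 0.0309). The difference also went with gene size. Genomic span was known for 85.3% of tested genes. In replicates 1 and 2 the median log2 change was -0.20 in the quartile of shortest genes (spans up to 11.2 kb), -0.04 and 0.16 in the middle quartiles and 0.30 in the quartile of longest genes (67 kb and more). In replicate 3 it was -0.35, -0.39, -0.37 and -0.31. With all 6 libraries, 33.2% of the shortest and 12.4% of the longest genes were called lower. The part of span, RNA quality or dose in this difference was not tested.

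**Figure D2:**
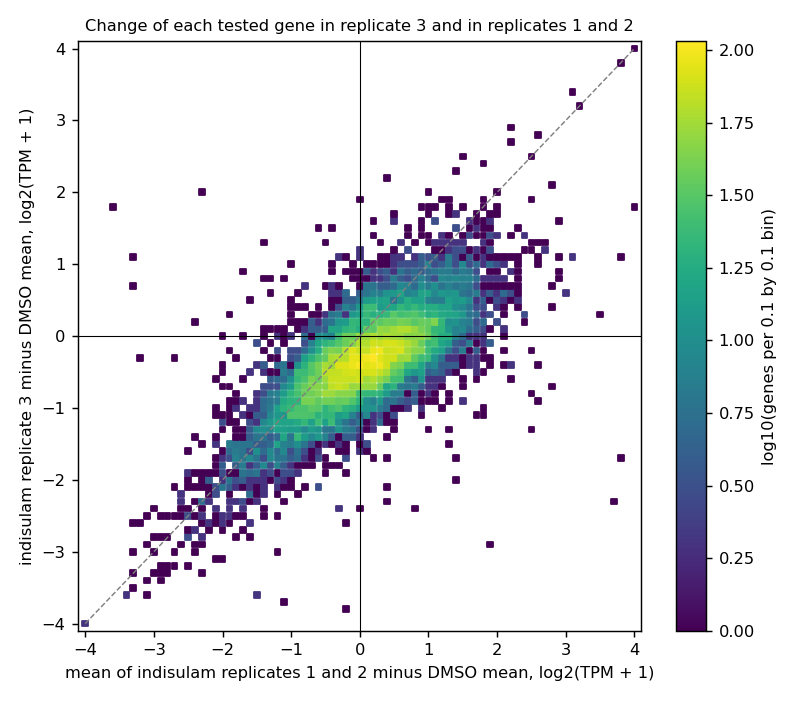
Change from the DMSO mean in indisulam replicate 3 (vertical) against the mean change in replicates 1 and 2 (horizontal), both in log2(TPM + 1), for the 13445 genes tested, with color giving the number of genes per bin, the dashed line marking equal change and values beyond 4 drawn at 4. Genes that fell lie along the dashed line, while most genes to the right of 0 lie under it, many at or below 0 in replicate 3.

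DNA replication genes fell as a group. Of 46 tested members 41 fell and 0 rose, with a median log2 change of -1.54 against -0.05 over all genes, and 43 fell and 1 rose without indisulam replicate 3. PCNA, the sliding clamp of the replicative polymerases, went from 231, 237 and 259.8 TPM to 38.5, 48.5 and 41.4 TPM (log2 change -2.48, SE 0.111, adjusted p = 5.24e-05). MCM7, a subunit of the replicative helicase, went from 156, 163 and 179.6 to 38.6, 46.5 and 37 TPM, FEN1, the flap endonuclease of Okazaki fragments, from 99.4, 101 and 109 to 21, 28.1 and 23.1 TPM, and CDC6 from 27.8, 25.3 and 29.8 to 1.61, 2.38 and 1.55 TPM. The treated libraries of these 4 genes lay far below the controls, with replicate 3 between or close to the other two. Enzymes of nucleotide supply fell with them, in 19 of 25 genes, and 1 rose (20 and 3 without replicate 3). The fallers included thymidine kinase TK1, from 128, 133 and 135 TPM to 22.3, 23 and 24.2 TPM, and thymidylate kinase DTYMK, from 59.1, 64.8 and 67.9 to 12.8, 15.6 and 16.6 TPM. The gene that rose was SAMHD1, a hydrolase that breaks deoxynucleotides down (log2 change 0.70), named here after its value was seen.

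The promoters of PCNA, MCM7 and TYMS are shown because these 3 genes fell together and each holds a match to the E2F site, the element through which E2F factors switch on S-phase genes. The lines give the 250 bases before the first listed RefSeq start (GRCh38.p14), in the direction of transcription, with matches to TTTCCCGC or its reverse complement in capitals; both strands were searched, and the second E2F motif searched, TTTGGCGC, has no match in these windows.
PCNA, chr20:5126623-5126872 (minus strand): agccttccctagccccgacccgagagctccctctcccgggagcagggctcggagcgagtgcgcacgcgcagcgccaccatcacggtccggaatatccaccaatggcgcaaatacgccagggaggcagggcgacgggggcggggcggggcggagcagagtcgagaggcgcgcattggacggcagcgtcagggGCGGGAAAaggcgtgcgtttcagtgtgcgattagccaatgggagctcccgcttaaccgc
MCM7, chr7:100101398-100101647 (minus strand): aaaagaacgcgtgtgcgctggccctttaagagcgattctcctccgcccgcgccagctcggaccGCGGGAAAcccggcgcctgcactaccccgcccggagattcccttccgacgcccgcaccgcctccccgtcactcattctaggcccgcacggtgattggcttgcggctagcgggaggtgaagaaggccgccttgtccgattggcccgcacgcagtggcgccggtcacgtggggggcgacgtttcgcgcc
TYMS, chr18:657403-657652 (plus strand): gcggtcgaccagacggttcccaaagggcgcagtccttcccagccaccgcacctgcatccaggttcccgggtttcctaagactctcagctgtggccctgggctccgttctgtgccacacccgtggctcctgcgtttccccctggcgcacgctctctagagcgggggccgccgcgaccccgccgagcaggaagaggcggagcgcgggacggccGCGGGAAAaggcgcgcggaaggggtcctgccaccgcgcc
The match ends 52 bases before the start in PCNA and 32 bases before it in TYMS, and it begins 187 bases before it in MCM7. Of 39 DNA replication genes with a promoter in the reference, 7 (17.9%) held TTTCCCGC in these 250 bases, against 2.41% of the promoters of 9144 tested genes, and 3 (7.69%) held TTTGGCGC, against 0.897%. A match describes the letters and not a bound site.

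Mitosis genes fell in 23 of 40 cases and none rose, with a median log2 change of -0.91. Aurora kinase B (AURKB) went from 123, 135 and 129 TPM to 25.1, 25.6 and 20.7 TPM, survivin (BIRC5), its partner in the chromosomal passenger complex, from 53.4, 53.8 and 53.8 to 17.8, 14.6 and 17.4 TPM, and the kinetochore subunits SPC24 and SPC25 fell by 2.83 and 2.53 on the log2 scale. Treated and control libraries of these genes did not overlap, which also held, with indisulam lower, for 32.3% of all genes tested. Without indisulam replicate 3, 30 members fell and 5 rose. The 5 were ASPM, CCNB1, CDK1, CENPE and TTK, of which none was called with all 6 libraries. The mitotic kinase gene CDK1 was at 62.6, 56.3 and 56.5 TPM with DMSO and 75.9, 63.6 and 30.5 TPM with indisulam, and cyclin B1 (CCNB1) at 75.9, 75.2 and 75.3 and 107, 97.5 and 67 TPM. In both genes replicates 1 and 2 were above the DMSO libraries and replicate 3 below them. The promoters of TOP2A and CDC20 are shown for their CHR elements (TTTGAA) and CCAAT boxes. This pair is usual in genes expressed in G2 and mitosis. Matches on either strand are in capitals, and no match of one overlaps the other.
TOP2A, chr17:40417897-40418146 (minus strand): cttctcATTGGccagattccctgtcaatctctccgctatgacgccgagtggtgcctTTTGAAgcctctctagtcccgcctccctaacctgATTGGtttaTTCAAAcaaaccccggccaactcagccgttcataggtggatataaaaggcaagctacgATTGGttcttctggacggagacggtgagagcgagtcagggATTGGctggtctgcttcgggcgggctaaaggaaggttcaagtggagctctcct
CDC20, chr1:43358731-43358980 (plus strand): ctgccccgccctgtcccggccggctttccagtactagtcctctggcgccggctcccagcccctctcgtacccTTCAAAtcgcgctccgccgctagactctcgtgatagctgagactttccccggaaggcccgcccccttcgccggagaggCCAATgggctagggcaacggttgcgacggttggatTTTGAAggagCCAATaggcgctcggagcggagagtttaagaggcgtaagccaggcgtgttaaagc
TOP2A, the topoisomerase that untangles chromosomes, holds 4 CCAAT boxes and 2 CHR matches, and CDC20, the activator of the anaphase-promoting complex, 2 of each. Among 35 mitosis genes with a promoter in the reference, 19 (54.3%) held TTTGAA and 27 (77.1%) CCAAT, against 8.14% and 36% of the promoters of all 9144 tested genes. TOP2A was at 66.4, 59.6 and 66.7 TPM with DMSO and 12.9, 11.4 and 7.45 TPM with indisulam, and CDC20 at 81.1, 82.7 and 86 and 43.5, 38.9 and 38.5 TPM. TOP2A and CDC20 fell by 2.52 and 1.03 on the log2 scale.

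Recombination and G1 genes fell and p53 targets rose. Homologous recombination and Fanconi genes fell in 20 of 35 cases and rose in 0, or in 20 and 4 without indisulam replicate 3. FANCG, a subunit of the Fanconi core complex, went from 48.1, 48.2 and 47.4 TPM to 8.1, 10.7 and 11.6 TPM, and UBE2T, the ubiquitin-conjugating enzyme of the pathway, from 83.2, 79.7 and 87.5 to 17.2, 19.9 and 18.6 TPM. Among G1 control genes 13 of 23 fell and 1 rose (13 and 5 without replicate 3). The S-phase kinase CDK2 went from 34.9, 33.8 and 33 to 9.5, 11 and 8.22 TPM, and E2F2 and the CDK4 inhibitor gene CDKN2D fell by 2.61 and 2.28. The gene that rose was CDKN1A, which encodes the CDK inhibitor p21 and is named here after its value was seen, from 13.6, 13 and 14.8 to 30.5, 22.5 and 18.1 TPM. It is also a p53 target, and of 26 p53 targets 12 rose and 0 fell, against 8.47% of all genes called higher (21 of 27 rose and 1 fell without replicate 3, against 37.9% higher). MDM2, the ubiquitin ligase of p53, rose from 77.7, 89.9 and 76.9 TPM to 332, 258 and 204 TPM (log2 change 1.66, SE 0.175, adjusted p = 0.000794), the cyclin CCNG1 from 58.7, 59.5 and 60.4 to 232, 188 and 171 TPM, and PHLDA3, an inhibitor of AKT, from 1.82, 1.08 and 0.8 to 7.49, 6.39 and 6.13 TPM. The treated libraries stood above the controls in each gene, and replicate 3 was the lowest treated library.

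Apoptosis genes went both ways. In the BCL2 family 4 of 13 genes rose and 3 fell, 30.8% and 23.1% beside 8.47% and 21.5% of all genes. Without indisulam replicate 3, 5 rose and 5 fell, where 37.9% of all genes rose and 27.8% fell. The BH3-only genes BBC3 (PUMA) and BMF rose, from 9.63, 12.6 and 11.2 TPM to 25.2, 19.8 and 25.4 TPM and from 20.1, 19.1 and 20.3 to 48.6, 43.9 and 28.4 TPM, while the BH3-only genes BAD and BID fell by 0.73 and 0.57 on the log2 scale, neither of which was called after median scaling. Of 17 apoptosis effectors and inhibitors 2 rose and 5 fell, 11.8% and 29.4% beside the same shares of all genes (5 and 5 without replicate 3). The death receptor gene TNFRSF10B rose from 7.19, 5.84 and 6.7 to 33.3, 25 and 14.1 TPM and CFLAR, which restrains caspase 8 at such receptors, from 45.8, 50.3 and 46.4 to 107, 97.6 and 79.1 TPM. The adaptor gene FADD fell from 21.4, 19.9 and 22.1 to 11.3, 10.1 and 11.3 TPM and caspase 6 (CASP6) from 17.8, 15.7 and 19.7 to 7.2, 7.24 and 5.73 TPM. Groups overlapped in none of these 4 genes. Over all genes tested, 32.3% had non-overlapping groups with indisulam lower and 14.9% with indisulam higher.

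**Figure D3:**
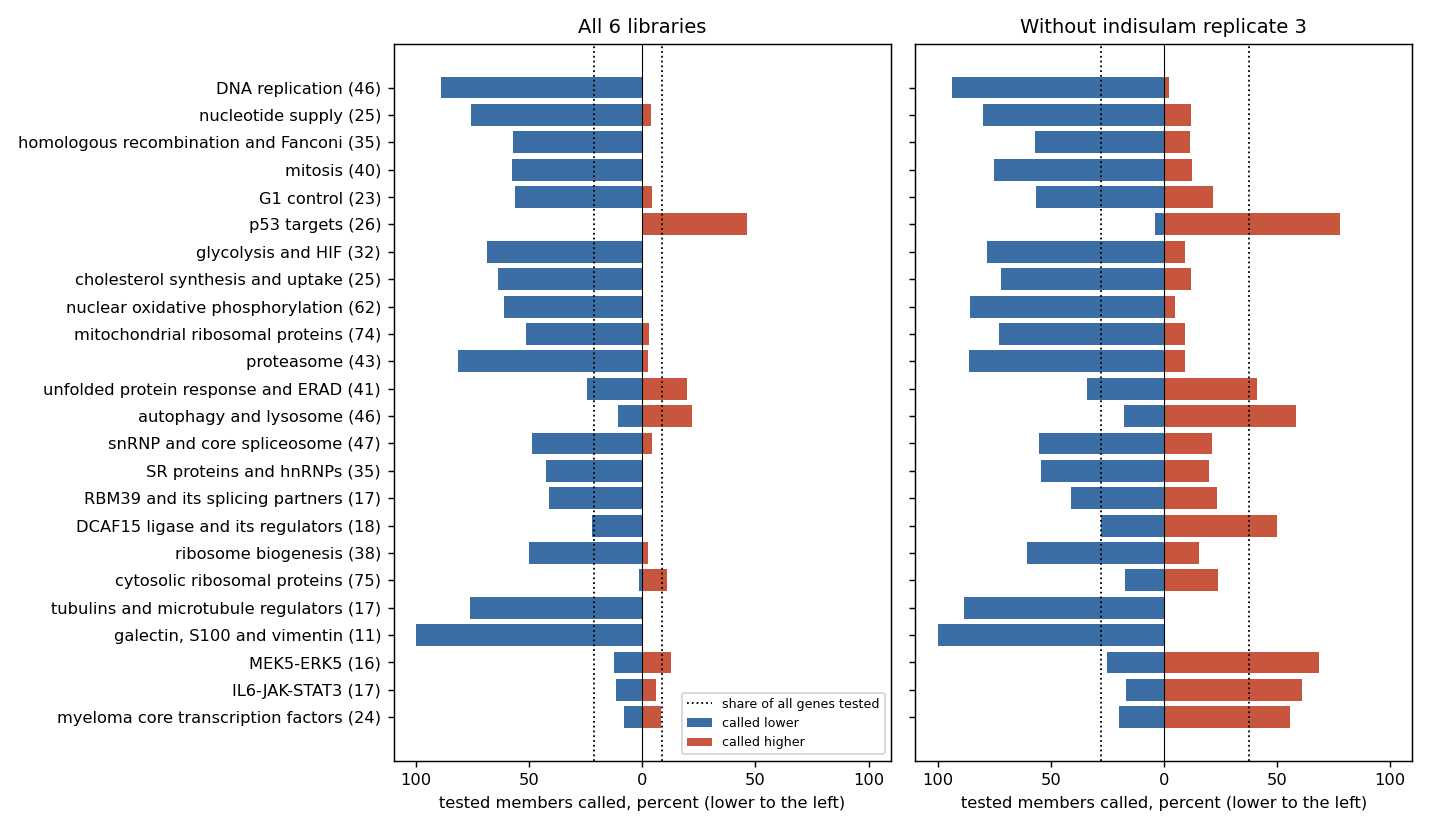
Percentage of the tested members of each gene list called lower (blue, leftward) and higher (red, rightward) by limma, with all 6 libraries (left) and without indisulam replicate 3 (right), the number tested with all 6 in parentheses and the dotted lines giving the same share over all genes tested. On the left 89.1% of DNA replication genes and 81.4% of proteasome genes were called lower against 21.5% of all genes, and on the right red bars grow for most lists, as the dotted line for higher genes moves from 8.47% to 37.9%.

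Glycolysis and HIF target genes fell in 22 of 32 cases and none rose, with a median log2 change of -1.07 (25 lower and 3 higher without indisulam replicate 3). Lactate dehydrogenase A (LDHA) went from 991, 855 and 813 TPM to 99.5, 124 and 106 TPM (log2 change -3.00, SE 0.116, adjusted p = 3.19e-05), GAPDH from 4235, 4191 and 4129 to 1332, 1277 and 1435 TPM, enolase ENO1 from 743, 704 and 707 to 222, 249 and 245 TPM and pyruvate kinase PKM from 544, 480.3 and 498 to 133, 159 and 127 TPM. The 3 treated libraries of each gene agreed closely and were far below the controls. GAPDH has many processed pseudogenes, which can take some of its reads. The LDHA promoter is shown because LDHA was the member with the largest fall and HIF binds the core ACGTG there; capitals mark that core on either strand of the 250 bases before the start, and where CACGTG occurs the matches of both strands overlap.
LDHA, chr11:18394313-18394562 (plus strand): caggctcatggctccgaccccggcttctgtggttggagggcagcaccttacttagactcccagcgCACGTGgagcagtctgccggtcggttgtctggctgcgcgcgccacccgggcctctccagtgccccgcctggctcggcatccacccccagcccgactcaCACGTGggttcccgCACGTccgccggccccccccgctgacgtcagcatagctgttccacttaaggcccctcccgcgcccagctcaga
The core occurs at 3 places in this window. Of 28 glycolysis and HIF genes with a promoter in the reference 12 (42.9%) held it, against 24.2% of all 9144 promoters.

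Lipid genes fell too. Of 25 genes of cholesterol synthesis and uptake 16 fell and 0 rose (18 and 3 without indisulam replicate 3). The sterol isomerase EBP went from 172, 178 and 177 TPM to 44.2, 53.1 and 63.2 TPM, and INSIG1, which holds the SREBP pathway in check and is itself an SREBP target, from 179, 162 and 182 to 68.2, 77.6 and 53.5 TPM. Of 17 genes of fatty acid synthesis 7 fell and 1 rose (9 and 3 without replicate 3). The desaturase SCD went from 174, 152 and 164 to 72.9, 80.3 and 52.5 TPM, fatty acid synthase FASN from 77.7, 71.2 and 77.7 to 36.8, 38.5 and 31.3 TPM and SREBF1, the SREBP gene for this branch, from 156, 153 and 168 to 72.4, 85.5 and 59.5 TPM. No treated library of these 5 genes reached a control, beside 32.3% of all genes tested with every treated library lower.

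Nuclear genes of the respiratory chain fell by less. Of 62 members 38 fell and 0 rose, with a median log2 change of -0.39, but 9 fell and 2 rose after median scaling, 15 and 6 after quantile normalization and 53 and 3 without indisulam replicate 3. NDUFB8, a subunit of complex I, had the largest fall of the list, from 299.7, 311 and 317 TPM to 61.9, 59.9 and 63.4 TPM (log2 change -2.31, SE 0.0754, adjusted p = 2.56e-05), and stayed lower under both scalings. ATP5MC1, the c-ring subunit of ATP synthase, went from 261, 289 and 305 to 89.8, 113 and 115 TPM and NDUFV2 from 700.0, 731 and 714 to 302, 326 and 364 TPM. Mitochondrial ribosomal proteins fell in 38 of 74 cases and rose in 2 (18 and 0 after median scaling, 54 and 7 without replicate 3), with MRPL27 at 83.8, 92.8 and 92.9 against 30.6, 32.4 and 33.9 TPM. Of 15 mitochondrially encoded transcripts 3 rose and 3 fell, with 1 higher and 0 lower after median scaling, 2 and 7 after quantile normalization and 5 and 6 without replicate 3.

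Proteasome subunit genes fell nearly throughout. Of 43 members 35 fell and 1 rose, with a median log2 change of -0.74 (29 and 2 after median scaling, 37 and 4 without indisulam replicate 3). PSMB7, which carries the trypsin-like active site, went from 195, 214 and 201 TPM to 84.2, 87 and 101 TPM (log2 change -1.16, SE 0.0979, adjusted p = 0.000386). The ATPase subunits of the regulatory particle PSMC3 and PSMC5 went from 149, 152 and 149 to 83.4, 82.5 and 83.6 TPM and from 166, 167 and 173 to 82.7, 89.8 and 80.0 TPM, and the 11S activator gene PSME2 from 203, 216 and 204 to 80.6, 85.5 and 98.7 TPM. All 3 treated libraries agreed, and the list median by library was -0.70, -0.67 and -0.65.

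Genes of the unfolded protein response and ER-associated degradation moved both ways. With the values as deposited 8 of 41 rose and 10 fell, but 9 rose and 2 fell after median scaling and 16 and 3 after quantile normalization. Without indisulam replicate 3, 17 rose and 14 fell, or 14 and 19 after median scaling as well. Beside the sensor ERN1, HERPUD1, which organizes the degradation complex, rose from 475, 491 and 515 TPM to 1156, 1011 and 829 TPM. The chaperone calreticulin (CALR) fell from 660.0, 659.7 and 671 to 445, 424 and 472 TPM and the translocon subunit SEC61G from 801, 847 and 856 to 424, 401 and 479.8 TPM. The remaining risers were DNAJB9, EDEM3, EIF2AK3, SEL1L, SSR3 and XBP1 and the remaining fallers DERL3, DNAJB11, MANF, PDIA3, PDIA4, PDIA6, SEC61B and SPCS2. XBP1 was at 537, 528 and 538 against 653, 678 and 617 TPM, a change that did not pass after median scaling, nor did that of CALR. Genes of autophagy and the lysosome rose in 10 of 46 cases and fell in 5 (27 and 8 without replicate 3, where 37.9% of all genes rose). Prosaposin (PSAP), precursor of the lysosomal sphingolipid activators, rose from 383, 378 and 382 to 928.5, 871 and 699 TPM, while the lysosomal enzymes GLA, HEXA and CTSZ fell by 1.79, 0.88 and 0.94 on the log2 scale.

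In 4 other stress lists 11.1% to 21.1% of the members fell and 5.26% to 15% rose, beside 21.5% and 8.47% of all genes. Of 27 ATF4 targets 2 rose and 3 fell (3 and 5 after median scaling, 6 and 4 after quantile normalization, 8 and 3 without indisulam replicate 3). The mTORC1 inhibitor gene DDIT4 fell from 64.2, 69.7 and 66.4 TPM to 13.1, 9.28 and 8.44 TPM, and SLC3A2, the heavy chain of amino acid transporters, rose from 178, 220.5 and 228 to 591, 415 and 457 TPM. Of 20 cytosolic tRNA synthetase genes 3 rose and 4 fell, and the balance turned to 7 and 2 after median scaling, 9 and 2 after quantile normalization and 10 and 5 without replicate 3. Heat shock genes rose in 1 and fell in 4 of 19 cases, turning to 5 and 2 and to 6 and 3 under these scalings. Without replicate 3 they rose in 7 and fell in 5 cases, or in 5 and 8 after median scaling as well. The small heat shock protein gene HSPB1 went from 25.3, 27.1 and 26.5 to 5.85, 9.64 and 13.7 TPM. Nonsense-mediated decay genes rose in 1 and fell in 4 of 19 cases, in 4 and 3 after median scaling and in 10 and 4 without replicate 3. The exon junction helicase EIF4A3 went from 63, 61.2 and 67.4 to 25.1, 27.2 and 28.7 TPM and its partners MAGOH and RBM8A fell by 0.70 and 0.70 on the log2 scale.

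**Figure D4:**
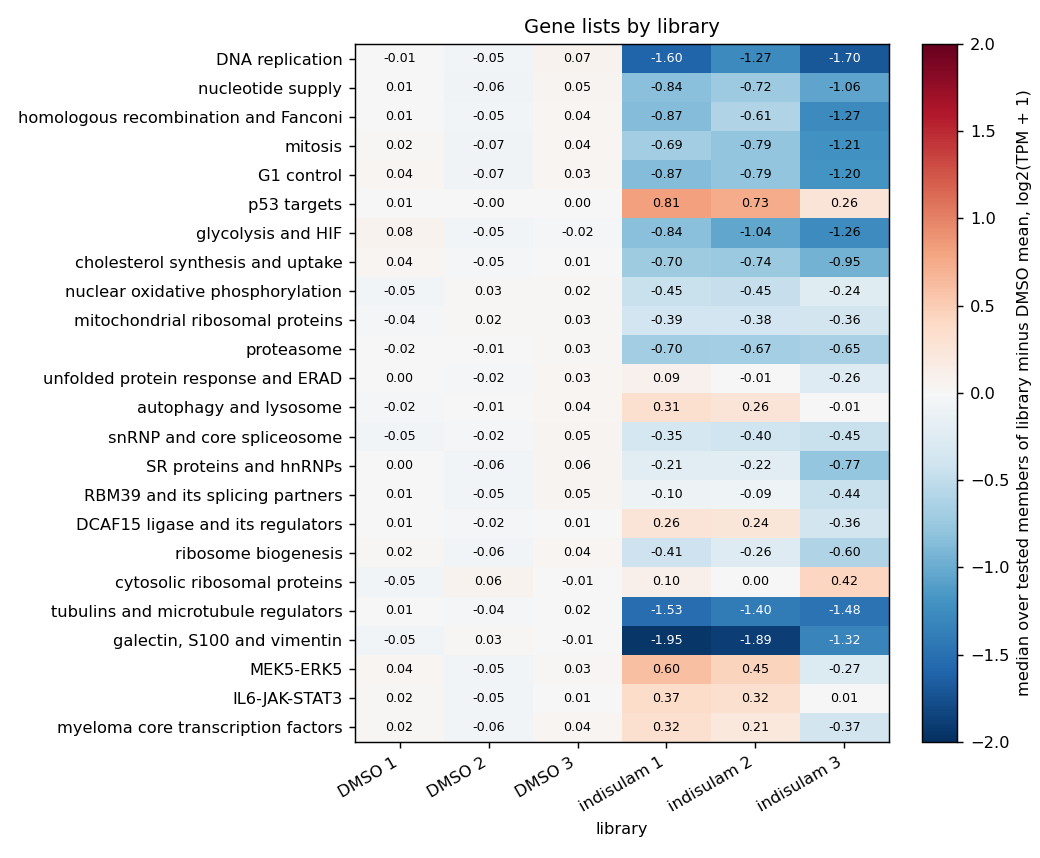
Median over the tested members of each list of the library's level minus the DMSO mean, in log2(TPM + 1), with columns for the 6 libraries and the value printed in each cell. Cell cycle, proteasome and tubulin lists are negative in all 3 indisulam columns. Most lists drawn are lower in replicate 3 than in replicates 1 and 2, among them p53 targets, the MEK5-ERK5 list and myeloma transcription factors. The median over all tested genes in replicate 3 was -0.33.

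Among splicing genes outside the RBM39 partners, snRNP, SR protein and hnRNP genes fell more often than they rose. Of 47 snRNP and core spliceosome genes 23 fell and 2 rose, with a median log2 change of -0.35 (16 and 3 after median scaling, 26 and 10 without indisulam replicate 3). The Sm ring subunits SNRPF and SNRPG went from 49.2, 49.98 and 53.1 TPM to 14.6, 17.3 and 19.8 TPM and from 241, 235 and 249.9 to 109.7, 123 and 128 TPM, and SNRPA1, a U2 particle protein, from 156, 163 and 165 to 79.1, 79.3 and 72.6 TPM. Of 35 SR protein and hnRNP genes 15 fell and 0 rose (8 and 4 after quantile normalization, 19 and 7 without replicate 3), among them HNRNPA1, from 1174, 1196 and 1240.4 to 560.0, 613 and 541 TPM. Among 11 splicing kinases CLK1 and CLK4 rose, from 102, 99.4 and 95 to 226, 204 and 138 TPM and from 12.7, 10.6 and 11.4 to 33.4, 29.4 and 15.4 TPM, and CLK2 fell, from 88.6, 84.3 and 90.8 to 59.9, 54.9 and 32.1 TPM, while 6 of the kinases rose and 2 fell without replicate 3. CLK transcripts keep introns in the nucleus to a varied degree, and gene-level TPM does not tell spliced from unspliced forms. The RBM family had 2 of 34 genes higher and 9 lower, 5.88% and 26.5%, near the 8.47% and 21.5% of all genes. Without replicate 3, 13 were higher and 13 lower, beside 37.9% and 27.8% of all genes. RBMX2 was at 14.6, 17.9 and 15.9 against 51.5, 51.3 and 29.9 TPM and RBM10 at 31.1, 31.3 and 33.7 against 19, 20.2 and 16.6 TPM.

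Of 38 ribosome biogenesis genes 19 fell and 1 rose (23 and 6 without indisulam replicate 3), including the box C/D particle protein NOP56, from 259, 248 and 248 TPM to 110.2, 138 and 122 TPM, and nucleolin (NCL), from 223, 212 and 214 to 123, 139.6 and 124 TPM. Of 75 cytosolic ribosomal protein genes 8 rose and 1 fell, with a median log2 change of 0.18, and the 10.7% higher is close to the 8.47% of all genes. After median scaling 0 were called (0 of 75 at an adjusted p below 0.05, and 0 at an unadjusted p below 0.05), after quantile normalization 28 rose and 5 fell, and without replicate 3 18 rose and 13 fell. The balance without replicate 3 turned after median scaling, with 3 higher and 30 lower. The list median was 0.42 in replicate 3 and 0.10 and 0.00 in replicates 1 and 2.

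Cytoskeletal and calcium-binding genes fell together. All 11 tested of the 15 genes listed as galectin, S100 and vimentin fell, with and without indisulam replicate 3, with a median log2 change of -1.76. Galectin-1 (LGALS1) went from 2046, 2256 and 2082 TPM to 367, 315 and 425 TPM, annexin A2 (ANXA2) from 343, 349.8 and 342 to 88.5, 83.1 and 82 TPM, and its partner S100A10 from 89.2, 83.2 and 74.9 to 8.33, 9.55 and 14.2 TPM. The giant scaffold gene AHNAK, which joins the ANXA2 and S100A10 complex, went from 11.2, 9.65 and 9.85 to 0.61, 1.11 and 0.51 TPM. Of 17 tubulins and microtubule regulators 13 fell and 0 rose (15 and 0 without replicate 3). TUBA1B and TUBB4B went from 1103, 1029 and 1115 to 186, 208 and 193 TPM and from 333, 318 and 328 to 85.2, 85.7 and 79.2 TPM, and stathmin (STMN1), which takes up free tubulin, from 459, 482 and 472 to 92.8, 115 and 123 TPM. Tubulin genes are similar in sequence, so how their reads were divided is uncertain. No treated library of these genes reached a control, beside 32.3% of all genes tested with every treated library lower.

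Plasma cell genes were expressed in both groups. Among 10 plasma cell markers the surface marker SDC1 was at 198, 200.3 and 214 TPM with DMSO and 203, 215 and 194 TPM with indisulam, and the antibody joining chain JCHAIN at 4299.7, 3773 and 3976 and 3423, 3885 and 2925 TPM, with overlapping groups for both. Of 9 markers tested 1 rose and 3 fell (0 and 1 after median scaling, 4 and 2 after quantile normalization, 4 and 3 without indisulam replicate 3), and CD27 was below 1 TPM in every library. Of 27 surface and therapy target genes 2 rose and 8 fell, but 6 and 6 after median scaling, 12 and 7 after quantile normalization and 10 and 11 without replicate 3. BCMA (TNFRSF17) went from 542, 593 and 556 to 402, 423 and 457 TPM, a fall not called under either scaling. TACI (TNFRSF13B), the other receptor of its ligand APRIL, went from 342, 388 and 392 to 123, 136 and 167 TPM, GPRC5D, a target of bispecific antibodies, from 350.3, 358 and 356 to 236, 260.3 and 197 TPM, and CD38, the target of daratumumab, from 4.25, 3.85 and 4.8 to 1.75, 1.81 and 0.92 TPM.

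Heavy chain genes of the antibody loci moved apart. IGHA1 rose from 0.96, 1.44 and 1.56 TPM to 23.3, 16.3 and 20.6 TPM and IGHA2 from 1.51, 2.36 and 2.71 to 13.8, 10.2 and 11.8 TPM, while IGHG1 fell from 441, 499 and 504 to 243, 262 and 275 TPM and IGHG4 from 25.1, 27.4 and 28.8 to 3.08, 4.67 and 5.54 TPM. In all 4 genes the 3 treated libraries agreed and did not overlap the controls. Over all genes tested, groups did not overlap in 32.3% on the lower side and 14.9% on the higher side. In the whole list 2 of 12 rose and 7 fell, with and without indisulam replicate 3. The constant region genes within each class are nearly identical, so the division of reads within a class is uncertain. Among 24 core myeloma transcription factors and their targets 2 rose and 2 fell (2 and 4 after median scaling, 6 and 3 after quantile normalization). Without replicate 3, 14 rose and 5 fell, or 8 and 8 after median scaling as well. MAF, whose translocation drives this line's class of myeloma, rose from 105, 97.2 and 102 to 275, 316 and 137 TPM, and its target integrin beta 7 (ITGB7) was lower, from 7228, 6972 and 7195 to 5424, 6237 and 4715 TPM, a fall not called after median scaling.

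Signaling lists had fewer calls with all libraries than without replicate 3, as did all genes, with 29.9% and 65.7% called in either direction. Of 16 tested MEK5-ERK5 genes 2 rose and 2 fell (5 and 2 after median scaling), and 11 rose and 4 fell without indisulam replicate 3, where 37.9% of all genes rose. NR4A1, a nuclear receptor induced by ERK5 and ERK1/2, rose from 1.76, 1.9 and 1.5 TPM to 7.24, 7.24 and 6.09 TPM (log2 change 1.53, SE 0.166, adjusted p = 0.000832), and the autophagy receptor SQSTM1 from 146, 155 and 159.9 to 238, 211 and 195 TPM. KLF2, a classical ERK5 target, fell from 11.3, 13.2 and 14.1 to 3.62, 4.63 and 4.74 TPM, and the kinase co-chaperone CDC37 from 157, 161 and 169 to 133, 137 and 113 TPM, the latter not called under either scaling. ERK5 itself (MAPK7) was at 8.58, 7.58 and 8.24 TPM with DMSO and 4.73, 6.89 and 3.05 TPM with indisulam, with no overlap and no call (log2 change -0.68, adjusted p = 0.0848). Of 17 IL6-JAK-STAT3 genes 1 rose and 2 fell (6 and 1 after median scaling), and 11 rose and 3 fell without replicate 3. The receptor gene IL10RA rose from 19.1, 18.1 and 19.7 to 52.8, 54.8 and 33.4 TPM and the feedback regulator SOCS2 fell from 9.33, 9.04 and 9.04 to 3.79, 3.65 and 4.56 TPM.

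Of 13 chemokines and receptors 5 rose and 4 fell, 38.5% and 30.8% beside 8.47% and 21.5% of all genes (4 and 4 after median scaling, 5 and 5 without indisulam replicate 3). CCL3, a macrophage-attracting chemokine that myeloma cells secrete and that activates osteoclasts, rose from 1155, 1333 and 1174 TPM to 4822, 3969.7 and 4431 TPM (log2 change 1.85, SE 0.101, adjusted p = 9.2e-05), and its near-identical copy CCL3L1 from 280.2, 334 and 302 to 935, 906 and 917 TPM, so the division of reads between them is uncertain. CCL5 fell from 24.4, 26.4 and 25 to 10.5, 11.1 and 11.8 TPM and the homing receptor CXCR4 from 28.7, 30.3 and 34.1 to 13, 14.8 and 11.1 TPM. Among 23 NF-kB genes 3 rose and 2 fell (6 and 0 after median scaling, 8 and 6 without replicate 3, 8 and 9 with both). CD40 rose from 9.78, 9.24 and 8.67 to 15.8, 16 and 12 TPM. Of 14 RAS-ERK feedback genes 3 rose and 1 fell, 21.4% and 7.14% (4 and 5 after median scaling, 7 and 2 without replicate 3). The ETS factor ETV5 was at 2, 2.37 and 2.34 against 6.58, 6.79 and 4.07 TPM. Of 16 immediate early genes 2 rose and 2 fell, 12.5% each beside 8.47% and 21.5% of all genes. Without replicate 3, 7 rose and 3 fell, beside 37.9% and 27.8% of all genes. IER2 rose from 2.21, 2.45 and 2.41 to 8.48, 9.2 and 6.51 TPM and KLF10 fell from 8.25, 7.84 and 7.54 to 3.55, 4.08 and 2.28 TPM. Interferon response genes fell in 8 and rose in 1 of 26 cases, 30.8% lower beside 21.5% of all genes. The balance turned without replicate 3, where 10 of 27 fell and 11 rose, and was 6 and 5 after median scaling. The list held the antiviral GTPase gene MX1 at 13.6, 13.9 and 17 against 4.33, 4.95 and 3.24 TPM and DDX58, the RNA sensor RIG-I, at 1.28, 1.21 and 1.06 against 4.76, 4.72 and 3.14 TPM.

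Chromatin genes, histones and long noncoding RNAs were the last gene groups. Beside their counts, 8.47% of all genes rose and 21.5% fell with all 6 libraries, and 37.9% and 27.8% did without replicate 3. With all 6 libraries 29.2% of chromatin regulators fell. Of histone genes 22.2% rose and 33.3% fell, of long noncoding RNAs 25% and 15%, and of MHC class I genes 7.69% and 30.8%. Of 24 chromatin regulators 7 fell and 0 rose (13 rose and 9 fell without replicate 3). UHRF1, which guides maintenance methylation, went from 25.4, 21.3 and 27 TPM to 1.8, 3.97 and 1.77 TPM, and the H3K27 methyltransferase EZH2 from 52.3, 50.4 and 54.4 to 22.2, 22.7 and 12.3 TPM, with replicate 3 lowest. Of 9 histone genes H2AFZ and H2AFX fell, from 952, 996 and 1063 to 337, 311 and 300.1 TPM and from 74, 77.6 and 82.7 to 13.1, 14.7 and 19.6 TPM, with the histone mRNA binder SLBP, and HIST1H2BK rose, from 11.6, 12 and 15.6 to 42.4, 43.1 and 34.7 TPM, with HIST2H2BE (2 rose and 5 fell without replicate 3). Of 20 long noncoding RNAs 5 rose and 3 fell (12 and 5 without replicate 3). The snoRNA host genes GAS5 and ZFAS1 rose from 495, 558 and 555 to 1018, 892 and 1009 TPM and from 66.7, 77.1 and 72.3 to 139.9, 125 and 159 TPM, and CYTOR fell from 66.4, 79 and 77.6 to 18.7, 20.3 and 24.9 TPM. Remaining lists were MHC class I presentation, with 1 of 13 higher and 4 lower (0 and 3 after median scaling, 4 and 3 after quantile normalization, 4 and 5 without replicate 3), and markers of other cell types. Some calls named above were near the threshold. Those of SF3B2, UBE2M, CD40, CLDN12, CLK4, MAF, USP32P3 and XBP1 were lost without any 1 of the DMSO libraries or of indisulam replicates 1 and 2. Those of BAD, BID, BMF, CDC37, CLK2, ETV5, ITGB7, KLF10, PHF5A, RBM17, SQSTM1 and TNFRSF17 were lost without at least 1 DMSO library, and those of BMF (replicate 2), CDC37 and ITGB7 (replicate 1) also without an indisulam library. Over these 20 genes the adjusted p in the fits that lost the call ranged from 0.0501 to 0.155.

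Markers of other blood and tissue cells were below 5 TPM in every library, apart from CD79B, HBB, CD68 and, in indisulam replicate 3, CR2 (9.59 TPM). The B cell marker MS4A1, the T cell markers CD3D and CD3G, the myeloid markers FCGR3A and S100A8, the stromal gene DCN and the epithelial gene KRT19 were listed at 0 in all 6 libraries. Summed levels ranged over 35.9 to 40.2 TPM with DMSO and 32 to 45.6 TPM with indisulam for 8 B cell markers, most of it CD79B, 3.91 to 5.33 and 1.39 to 1.88 TPM for 8 T cell markers, 10.1 to 10.9 and 7.22 to 8.34 TPM for 9 myeloid markers, most of it CD68, and 26.3 to 29.6 and 28.2 to 41.2 TPM for 5 erythroid markers, most of it HBB. For 7 stromal and 5 epithelial markers the sums were 0.67 to 0.99 and 0.63 to 1.22 TPM and 0.48 to 0.73 and 0.27 to 0.53 TPM. The only one of these genes called with all 6 libraries was the T cell gene CD3E, lower with indisulam, at 4.05, 3.1 and 2.9 against 0.89, 1.36 and 1.29 TPM; without replicate 3, 2 B cell markers and 1 marker each of T and myeloid cells were lower and 1 erythroid marker higher.

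The MM1S RBM39 knockdown, with 2 scramble and 2 shRBM39 libraries in a table normalized on its own, was set beside the indisulam values; its control libraries are not those of the indisulam comparison. There limma called 3.97% of 14152 genes higher and 6.35% lower. Among 12570 genes tested in both, 475 were called lower in both, which is 17.2% of the genes lower with indisulam and 55.6% of those lower with knockdown. Called higher in both were 141, or 14.9% and 27.9%. Opposite calls numbered 22 of the genes lower with indisulam and 13 of those higher. NDUFB8 fell in both, with knockdown from 288 and 276 TPM to 101 and 112 TPM (log2 change -1.40, adjusted p = 0.0116), as did LDHA, from 1411 and 1348 to 574 and 461 TPM. ALDH8A1 and ERMN rose in both, with knockdown log2 changes of 2.94 and 2.39, beside 3.78 and 2.58 with indisulam. CCL3, by contrast, rose with indisulam and fell with knockdown, from 3450.1 and 2263 TPM to 565 and 444 TPM (log2 change -2.48, adjusted p = 0.0121), and so did CCL3L1 (-3.03), NR4A1 (-1.93) and ETV5 (-1.44). The 2 control groups also differed for these genes, since CCL3 was at 1155, 1333 and 1174 TPM with DMSO.

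**Figure D5:**
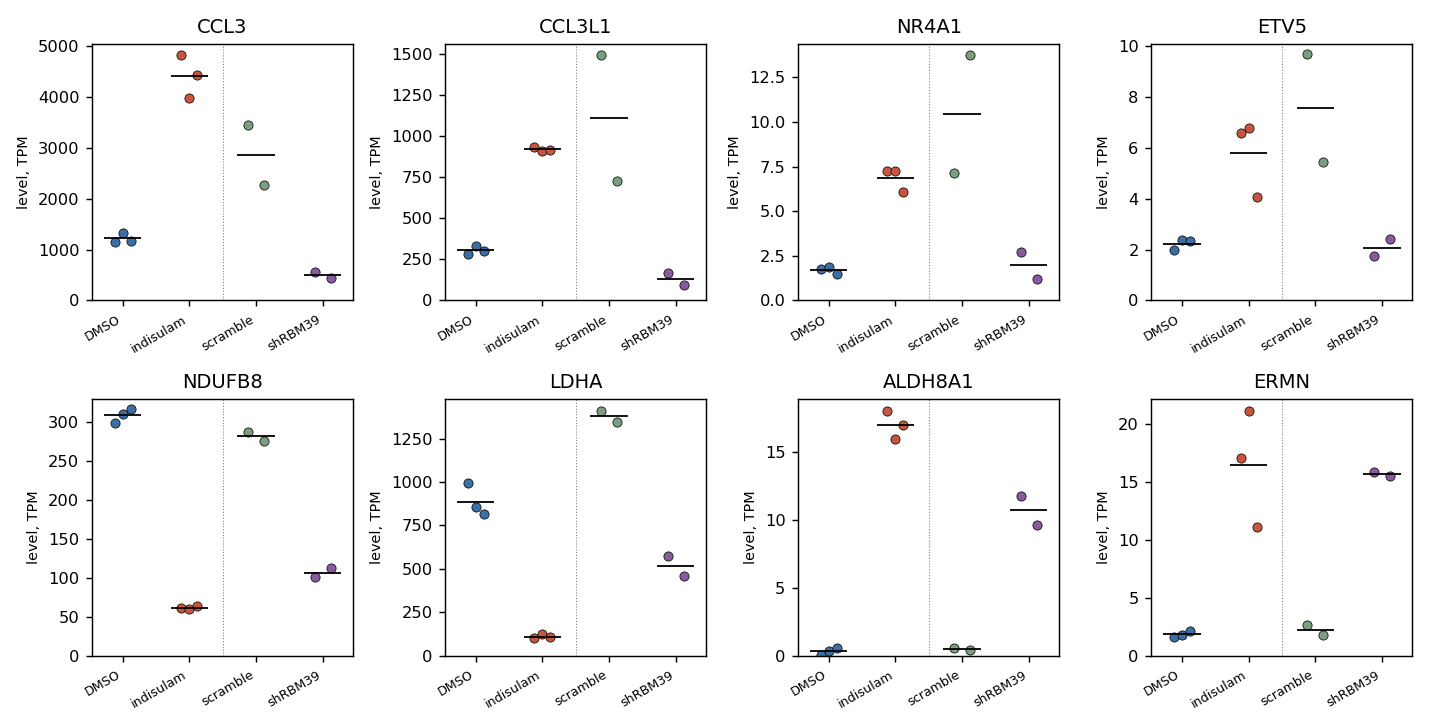
Level in TPM of 8 genes in MM1S with DMSO, indisulam, scramble and shRBM39, with 1 point per library and a bar at the group mean; the dotted line separates 2 tables that were normalized on their own. CCL3, CCL3L1, NR4A1 and ETV5 are higher with indisulam than with DMSO and lower with shRBM39 than with scramble, while the lower row moves the same way in both.

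By group, the knockdown matched the indisulam counts in some lists and not in others, and the difference between the comparisons was not tested. The knockdown called 10.3% of all genes in either direction, beside 29.9% with indisulam, so fewer calls in a list do not by themselves set the comparisons apart. DNA replication genes fell in 32 of 46 cases with knockdown and mitosis genes in 39 of 40. Proteasome genes fell in 0 and rose in 1 of 43 cases with knockdown, with a median log2 change of -0.10 beside -0.74 with indisulam. Mitochondrial ribosomal proteins rose in 4 and fell in 0 of 74 cases, and snRNP genes fell in 2 of 47. The 4 that rose and the 2 that fell are near the knockdown shares of all genes, 3.97% higher and 6.35% lower. Galectin, S100 and vimentin genes fell in 8 of 13 and glycolysis and HIF genes in 8 of 33, with 1 higher. In the RBM39 immunoprecipitation, a single library set against a single IgG library in FPKM, which is also scaled to gene length, the median log2 ratio of (RBM39 + 1) to (IgG + 1) was -0.07 over 2259 genes that fell with indisulam and -0.09 over 544 that rose, beside 0.02 over 9543 tested genes with a ratio. Ratios above 1 were held by 20.1%, 20.8% and 21.6% of these genes. With 1 library of each kind these ratios have no replicate check.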

How the data were processed

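The values are those the authors deposited, and reads were not used here. The MM1S tables are called FPKM by the authors, but every deposited column has the same total, as TPM does; the design had assumed FPKM, and the same test was used. The immunoprecipitation table holds FPKM, as deposited by the authors. No aligner or annotation is given in the sources used here; for these human cells the submitters' processing notes name GRCm38 and mm10, which are mouse builds. Columns were matched to samples by number (0 left unmatched). Of the rows, 473 with no gene name, holding 0.174% to 0.237% of TPM, were left out.

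Genes at 1 TPM or more in at least 3 libraries were tested on log2(TPM + 1), which understates changes of low genes, with limma 3.58.1 (trend and robust, two-sided) in R 4.3.3, with Benjamini-Hochberg adjustment over all genes tested and a threshold of 0.05. When a library was left out, and in the knockdown, 2 libraries sufficed. The fit was checked on simulated data. Named are RBM39 and MAP2K5, the 12 genes per direction with the largest log2 change among called genes with non-overlapping groups and a group mean of at least 5 TPM, 10 per direction without indisulam replicate 3, up to 4 called members per list by adjusted p, and all RBM39 partners and ligase genes; a few genes the rule takes are not reported here. Members, the 52 gene lists and tests were chosen with earlier results of these data known. Of the list symbols, 18 of 38 tRNA synthetase and 22 of 33 histone names did not match the older symbols in the table. Promoters are from RefSeq (GRCh38.p14), matched by symbol for 9144 of 13445 tested genes. No counting interval is given, since depth is unknown. Python 3.11.15 with pandas 2.3.3 and NumPy 2.4.6 was used for the counts. Alternatives were another pseudocount (0.1), filter (none, 5 TPM), scaling, variance model, replicate block, log2 threshold of 1 and leaving out each library; median scaling without indisulam replicate 3 was added after the data were seen.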

Additional observations from a re-analysis of the deposited data

How the results depend on the processing

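The count of genes that rose moved most. It was 1139 in the analysis reported, 670 with no filter on low values, 693 with a filter at 5 TPM, 528 at a log2 change of at least 1, 2514 after median scaling, 3026 after quantile normalization and 4224 without indisulam replicate 3 after median scaling. The count of genes that fell was 2885, 981 at a log2 change of at least 1 and 5115 in the last setting. Leaving out 1 library gave 352 to 5391 genes higher and 1497 to 3959 lower. The RBM39 log2 change was 0.40 after quantile normalization (adjusted p = 0.0387) and ranged from -0.056 to 0.242 with 1 library left out. Without indisulam replicate 3 after median scaling it was 0.055 (adjusted p = 0.366). The MAP2K5 log2 change ranged from -0.32 to -0.16 with 1 library left out, and it was -0.49 without indisulam replicate 3 after median scaling (adjusted p = 0.00559). SF3B2 turned from -0.25 to 0.064 after quantile normalization. The cause of these differences was not tested.

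With the replicate number as a block, 959 genes rose and 2217 fell, and the log2 changes of RBM39 (adjusted p = 0.832) and MAP2K5 (adjusted p = 0.444) did not pass. The numbers were not taken as pairs: the deviations of DMSO and indisulam libraries from their group means correlated at 0.137, -0.148 and -0.03 within numbers 1, 2 and 3, and only number 1 was the best match of its own number. Of 228 other named genes, 157 kept their direction and their side of the threshold under every alternative in which they were tested. TPM without counts gives no depth, so precision rests on 3 libraries per group alone, and dose, time and culture are unknown.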

Other observations

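The pair with the largest changes of all were copies of the 5S ribosomal RNA gene, and they mirrored each other. RNA5S8 was listed at 140, 85 and 48 TPM with DMSO and at 0 in all 3 indisulam libraries, while RNA5S4 was listed at 0 in all 3 DMSO libraries and at 100.1, 172 and 79.7 TPM with indisulam. The copies are nearly identical in sequence, so the assignment of reads between them is uncertain, and the values are given without reading a change from them.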
